A study of Mus musculus with 13 samples.

Results

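Tribbles pseudokinases are encoded in the mouse by Trib1, Trib2 and Trib3. Their mRNA levels were followed in control and Regnase-1-deficient splenic B cells, at rest and after stimulation through the B cell receptor (BCR). The 3 genes were taken by symbol from the count tables, where all 3 of 3 had a row among 23336 gene symbols with a count in every library, and all 3 passed the filter on low counts together with 13574 genes in all. The family was selected on a measured value: an earlier analysis of these libraries had named Trib1 among the genes lower in stimulated deficient cells. The values of that comparison, and of the difference between the responses that contains it, are therefore given for the 3 genes as a description with no test. The 13 RNA-seq libraries are 4 from control unstimulated cells, 3 from deficient unstimulated cells, 3 from control stimulated cells and 3 from deficient stimulated cells. Control cells were Regnase-1+/+ with hCD20TamCre, and deficient cells were Regnase-1f/f with hCD20TamCre, so every group carried the same Cre recombinase, which is named for the human CD20 promoter and for activation by tamoxifen. Stimulated cells received anti-IgM F(ab')2 for 4 h, and the unstimulated cells are labelled naive and untreated, with no time in culture given, so a change after stimulation may include that of 4 h in culture. Age, strain, sex and the tamoxifen schedule are not given in the sources used here, nor is it stated that each library comes from its own animal. Without that, the p-values describe the spread of these libraries, which may be technical.

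Tribbles proteins have a kinase fold with little or no catalytic activity and act as scaffolds. A motif in the C-terminal tail binds the ubiquitin ligase COP1 and a second binds MEK1, so that a substrate held by the pseudokinase domain, best known for C/EBPα with TRIB1 and TRIB2, is brought to COP1 for degradation. TRIB3 is known in other tissues as a target of the stress factor ATF4 and as a protein that binds AKT. Regnase-1, encoded by Zc3h12a, is an endonuclease that cuts mRNAs carrying stem-loops and is itself cleaved by MALT1 after antigen receptor signalling.

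In mm10, Trib1 lies on the plus strand of chromosome 15 (chr15:59648350-59657099), Trib2 on the minus strand of chromosome 12 (chr12:15791727-15816922) and Trib3 on the minus strand of chromosome 2 (chr2:152337422-152344032). GENCODE vM21 gives them 6248, 4335 and 2125 exonic bases in 3, 3 and 4 merged exons. No annotated gene overlaps Trib1 or Trib3 on either strand, and Trib2 overlaps only the microRNA gene Mir6387 on its own strand, which has no row in the count tables. RefSeq promoter windows (GRCm38.p6, 250 bases before to 50 after the start site) matched 2 of 3 members, Trib2 and Trib3. The Trib3 sequence is shown because Trib3 was the member whose profile lay closest to stress response genes. Capitals mark the match on the reverse strand to TGATGNAA, the core of the element bound by ATF4 with C/EBP partners, and the stretch ends where the GENCODE gene begins (chr2:152344033-152344310, minus strand). Its last 28 bases, capitals included, lie after the RefSeq start site, and the match begins at base 15 counted from that site.
Trib3 window: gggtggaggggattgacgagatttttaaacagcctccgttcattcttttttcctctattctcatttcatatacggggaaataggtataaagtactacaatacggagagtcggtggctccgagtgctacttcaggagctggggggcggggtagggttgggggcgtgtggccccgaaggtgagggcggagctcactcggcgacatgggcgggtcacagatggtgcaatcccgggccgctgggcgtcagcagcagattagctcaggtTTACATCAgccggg

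Searched on both strands, TGATGNAA occurred in the Trib3 window 1 time and in the Trib2 window 0 times, against 3.97% of all 32851 promoter windows of that length. The other motifs searched were the cyclic AMP element TGACGTCA, the AP-1 element TGANTCA and the E-box CACGTG. None of these 3 occurred in either window, and 1.79%, 7.81% and 7.15% of all windows held them. A match describes letters in the window and not a bound site.

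Library totals ran from 21407724 to 33244755 counts, and each Tribbles gene was covered by 556 to 2727 counts per library. Levels are given as CPM, the count scaled to the library's total and its TMM factor. The first principal component (81.1% of the variance) followed stimulation, and both number 1 libraries of the deficient genotype lay at the negative end of the second (7.91%). The targeted gene Zc3h12a was lower in deficient libraries of each state, at 89.2 to 111 CPM against 121 to 131 CPM in unstimulated cells and 92.6 to 113 CPM against 147 to 157 CPM in stimulated cells. The fitted log2 difference of Zc3h12a was -0.32 ± 0.07 (SE; edgeR quasi-likelihood test, adjusted p = 0.106) at rest and -0.58 ± 0.08 (adjusted p = 0.000784) after stimulation. Counts by gene do not show which exons the reads came from, so reads outside a floxed segment and incomplete deletion cannot be told apart. This level therefore checks the labels only in part. All 8 of 8 B cell markers were detected and summed to 5586 to 6612 CPM in unstimulated and 2679 to 2975 CPM in stimulated libraries.

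Trib1 was the member with the widest range across the 4 groups. Control libraries 1 to 4 gave 30.1, 32.1, 36.7 and 31.8 CPM of Trib1 at rest, and control libraries 1 to 3 gave 84.8, 97.4 and 102 CPM after stimulation. Deficient libraries 1 to 3 gave 24.8, 27.0 and 25.2 CPM at rest, then 49.3, 42.9 and 49.1 CPM after stimulation. No 2 groups overlapped, in the order control stimulated, deficient stimulated, control unstimulated and deficient unstimulated. The authors' deposited log2 values for Trib1 fell into the same order with no overlap, at 11.2 to 11.4, 10.3 to 10.5, 9.71 to 9.99 and 9.48 to 9.57. The share of all genes whose 4 groups separate in this way is not given here. For scale, 60.3% of tested genes had an adjusted p under 0.05 in the control response (edgeR). In such bulk samples, fewer cells expressing a gene and less of its RNA per cell cannot be told apart.

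**Figure D1:**
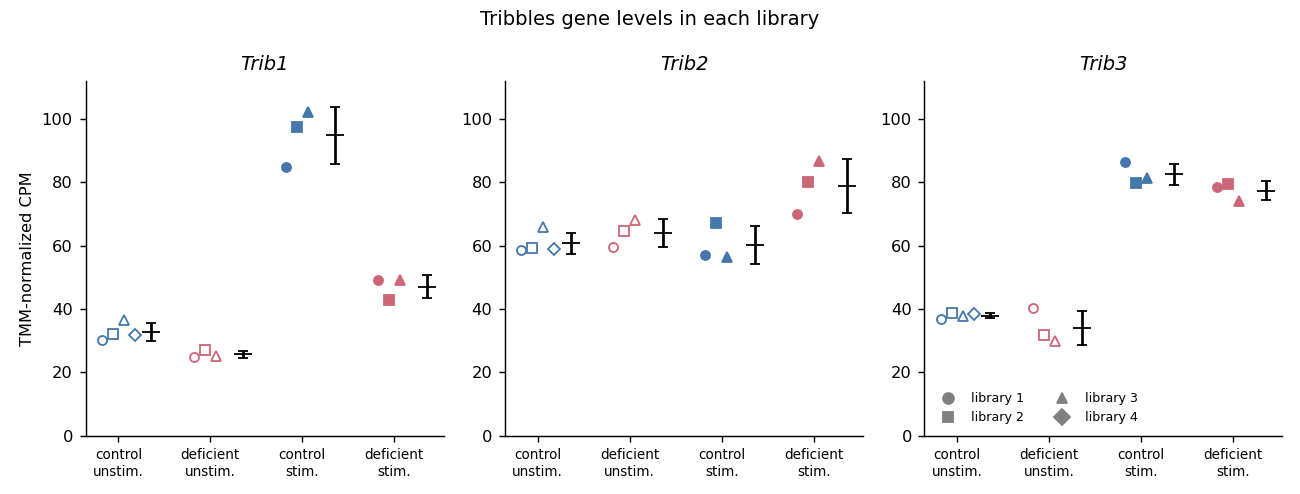
TMM-normalized CPM of Trib1, Trib2 and Trib3 in each of the 13 libraries. Points are libraries, open for unstimulated and filled for stimulated cells, blue for control and red for deficient, and the black bar is the group mean ± SD. The 3 control stimulated libraries of Trib1 sit between 84.8 and 102 CPM and the deficient ones between 42.9 and 49.3 CPM, while Trib3 sits between 74.1 and 86.3 CPM in all stimulated libraries.

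Trib2, which like Trib1 is known for directing C/EBPα to COP1, varied far less. At rest, control libraries 1 to 4 held it at 58.8, 59.3, 65.9 and 58.9 CPM, and after stimulation control libraries 1 to 3 held it at 57.1, 67.1 and 56.6 CPM. Deficient libraries 1 to 3 held it at 59.5, 64.5 and 68.1 CPM before stimulation and at 69.9, 80.1 and 86.7 CPM after it. The deficient stimulated libraries were above all others, and the other 3 groups overlapped one another. How many of all genes have 1 group above all others is not given here.

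Trib3, the stress-linked member, followed the state of the cells. At rest it read 36.8, 38.6, 37.9 and 38.3 CPM for control libraries 1 to 4, against 40.2, 31.9 and 30.0 CPM for deficient libraries 1 to 3. Stimulated control libraries 1 to 3 had 86.3, 79.9 and 81.3 CPM of it, and their deficient counterparts had 78.7, 79.4 and 74.1 CPM. Every stimulated library was above every unstimulated library, and at rest the deficient libraries lay on either side of the narrow control range. The share of all genes separated by state in this way is likewise not given here.

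The question of how B cells respond to their receptor was addressed first in control cells. Trib1 rose 2.90-fold, from 32.7 ± 2.79 CPM (SD, n = 4) to 94.8 ± 9.03 CPM (n = 3), and Trib3 rose 2.18-fold, from 37.9 ± 0.788 to 82.5 ± 3.36 CPM. The level of Trib2 was 60.7 ± 3.45 CPM before and 60.3 ± 5.94 CPM after. On the log2 scale the changes were 1.54 ± 0.08 (SE) for Trib1 and 1.12 ± 0.08 for Trib3, with adjusted p of 1.8e-10 and 5.2e-09 in edgeR's quasi-likelihood test. That of Trib2 was -0.01 ± 0.08 (adjusted p = 0.920), with the opposite sign, 0.060, under DESeq2's size factors. In this comparison 60.3% of the 13574 genes tested were called, 28.5% higher and 31.8% lower, so 2 of 3 members called is near the background share. In size, 4.90% of tested genes had a higher log2 change than Trib1 and 8.91% a higher one than Trib3. The control stimulated libraries also entered the comparison that chose the family.

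In deficient cells all 3 members rose after stimulation, against 57.9% of genes called, 28.3% higher and 29.6% lower. The deficient stimulated libraries, too, had entered the comparison that chose the family. Trib3 rose most, 2.27-fold from 34.1 ± 5.42 to 77.4 ± 2.88 CPM (n = 3 and 3), with a log2 change of 1.18 ± 0.09 (SE; edgeR, adjusted p = 9.7e-09). Trib1 rose 1.83-fold, from 25.7 ± 1.16 to 47.1 ± 3.66 CPM, with a log2 change of 0.87 ± 0.09 (adjusted p = 4.3e-07). Trib2 rose 1.23-fold, from 64.0 ± 4.33 to 78.9 ± 8.45 CPM, with a log2 change of 0.30 ± 0.09 (adjusted p = 0.00809), and its adjusted p reached 0.0499 without deficient stimulated library 3. The Trib3 response was 1.37 without both number 1 libraries of the deficient genotype.

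**Figure D2:**
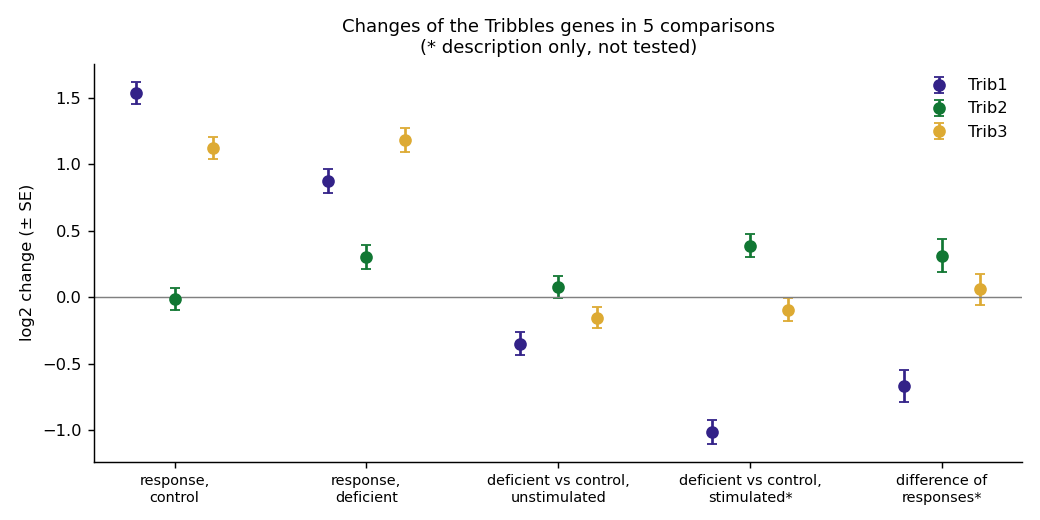
Log2 change ± SE of Trib1 (blue), Trib2 (green) and Trib3 (yellow) in the 5 comparisons, from the fit of all 13 libraries. The control and deficient responses of Trib3 lie at 1.12 and 1.18, those of Trib1 at 1.54 and 0.87, and the comparisons marked with an asterisk are descriptions that were not tested for these genes.

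Same-numbered libraries of a genotype show the responses one by one. For Trib1 the stimulated level was 2.82, 3.03 and 2.79 times the unstimulated one in control numbers 1 to 3, against 1.98-fold, 1.59-fold and 1.95-fold for deficient numbers 1 to 3. Each control ratio was above each deficient ratio. This is a description only, since the comparison that chose the family is part of it. For Trib2 the control ratios were 0.971, 1.13 and 0.859 and the deficient ratios 1.18, 1.24 and 1.27. The control pairs of Trib2 went in both directions, all 3 deficient pairs went up, and each deficient ratio was above each control ratio. The share of all genes whose ratios do not overlap between genotypes is not given here. For Trib3 the control ratios were 2.34, 2.07 and 2.14 and the deficient ratios 1.96, 2.49 and 2.47. Deficient number 1, which had the highest unstimulated level, had the lowest Trib3 ratio of all.

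**Figure D3:**
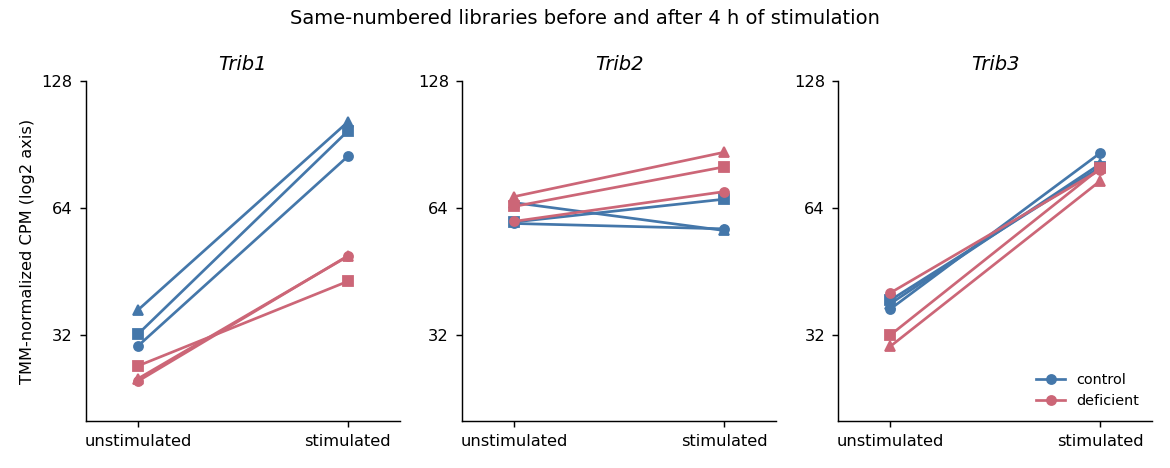
TMM-normalized CPM on a log2 axis for same-numbered libraries before and after 4 h of stimulation, with control in blue, deficient in red, and circles, squares and triangles for numbers 1, 2 and 3. The lines of Trib1 end at 84.8 to 102 CPM in control and 42.9 to 49.3 CPM in deficient cells, and those of Trib3 run together.

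Loss of Regnase-1 in unstimulated cells was compared in other libraries than those that chose the family, though not in independent ones, since same-numbered libraries of a genotype deviated together across the states (r of 0.49 to 0.83). By edgeR 0 of 3 members passed the test there, against 0.324% of 13574 genes called, and 1, Trib1, had an unadjusted p under 0.05. Trib1 was at 25.7 ± 1.16 CPM in deficient against 32.7 ± 2.79 CPM in control cells, a log2 difference of -0.35 ± 0.08 (SE; edgeR, adjusted p = 0.133). The highest deficient library was under the lowest control library, as for 5.58% of tested genes. DESeq2 called this difference (log2 -0.33, adjusted p = 0.0323), and leaving out single libraries gave -0.39 to -0.29. Trib2 differed by 0.08 ± 0.08 (adjusted p = 0.863) and Trib3 by -0.15 ± 0.08 (adjusted p = 0.648), both with overlapping groups.

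The Trib3 difference at rest kept its sign and was not called in any fit, but its size moved. It was -0.07 without deficient unstimulated library 3. Without both number 1 libraries of the deficient genotype it was -0.29 (edgeR, adjusted p = 0.0758). Deficient unstimulated library 1 also had the highest sums of erythroid, myeloid and neutrophil markers. Erythroid markers (5 of 8 with a row, Hba-a1 and Hba-a2 at 0 in every library) summed to 1016 CPM in it, 152 and 662 CPM in deficient numbers 2 and 3 and 288 to 614 CPM in control unstimulated libraries. Myeloid markers (7 of 8 with a row, none at 0 throughout a group) summed to 491 CPM in it, 201 and 135 CPM in the other deficient and 139 to 417 CPM in the control unstimulated libraries. Neutrophil markers (7 of 8) summed to 410 CPM in it, 63.2 and 45.8 CPM in the other deficient and 29.3 to 364 CPM in the control unstimulated libraries. Their part in the Trib3 level was not tested. The Trib1 difference at rest was -0.33 without both number 1 libraries, close to its value with them.

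After stimulation the libraries of deficient cells lay on different sides of control for different members, which is described here without a test. Trib1 stood at 47.1 ± 3.66 against 94.8 ± 9.03 CPM (n = 3 and 3), a log2 difference of -1.01 ± 0.09 (SE). Trib2 stood at 78.9 ± 8.45 against 60.3 ± 5.94 CPM, a log2 difference of 0.39 ± 0.09, with each deficient library above each control library. Trib3 stood at 77.4 ± 2.88 against 82.5 ± 3.36 CPM, a log2 difference of -0.09 ± 0.09. The Trib3 groups did not overlap only because the highest deficient library, at 79.4 CPM, was just under the lowest control one, at 79.9 CPM. In this comparison 2.01% of genes were called, for 10% every deficient library was under every control one, and for 7.8% every deficient library was above. Marker sums of other cell types overlapped between the stimulated groups for myeloid (79.9 to 163 CPM in control, 70.8 to 177 CPM in deficient), neutrophil (19.6 to 149 and 34.1 to 284 CPM) and T cell lists (62.0 to 90.4 and 82.4 to 98.7 CPM, 8 of 8 markers). Plasma cell genes (4 of 5 with a row), which include Xbp1 and Irf4 of activated B cells, summed to 2920 to 3288 CPM in control and 2066 to 2742 CPM in deficient stimulated libraries, with no overlap. Whether that sum has a part in the Trib1 or Trib2 difference was not tested.

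The deficient response minus the control response was -0.66 ± 0.12 (SE) on the log2 scale for Trib1, 0.31 ± 0.12 for Trib2 and 0.06 ± 0.12 for Trib3, again without a test. Without both number 1 libraries of the deficient genotype these values were -0.70, 0.36 and 0.20. Of all genes tested, 0.00737% were called in this comparison, which is 1 gene, and 68 genes were called with same-numbered libraries as a block.

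Per length of transcript the members could be set beside one another (TMM-normalized CPM per kilobase of exon, RPKM). In control unstimulated cells Trib3 was highest at 17.8 ± 0.371 RPKM (SD, n = 4), Trib2 followed at 14.0 ± 0.795 and Trib1 was lowest at 5.23 ± 0.447. After stimulation of control cells Trib3 stood at 38.8 ± 1.58 RPKM, and Trib1 at 15.2 ± 1.45 was level with Trib2 at 13.9 ± 1.37 within their spread. In deficient unstimulated cells Trib3 at 16.0 ± 2.55 RPKM and Trib2 at 14.8 ± 0.998 did not differ beyond their spread, and Trib1 was at 4.11 ± 0.186. In deficient stimulated cells the order was Trib3 at 36.4 ± 1.36 RPKM, Trib2 at 18.2 ± 1.95 and Trib1 at 7.54 ± 0.585, with no overlap.

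Trib1 made up 14.1% ± 0.685 of the summed RPKM of the family in control unstimulated cells and 22.3% ± 2.04 in control stimulated cells. In deficient cells its share was 11.8% ± 0.888 unstimulated and 12.1% ± 1.05 stimulated. Trib2 took 20.5% ± 1.81 in control stimulated and 29.3% ± 2.73 in deficient stimulated cells. In control stimulated libraries 1 to 3 Trib1 and Trib2 were close, at 20.2% and 19.6%, 22.7% and 22.5%, and 24.2% and 19.3%. Trib1 was behind Trib2 in each deficient stimulated library. These shares rest on the merged exon lengths of all annotated transcripts, and which transcripts were used is not known. The share of Trib3 in stimulated cells was 57.2% ± 2.83 in control and 58.6% ± 2.68 in deficient libraries. The summed level was 67.4 to 68.7 RPKM in control and 61.0 to 62.7 RPKM in deficient stimulated libraries.

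**Figure D4:**
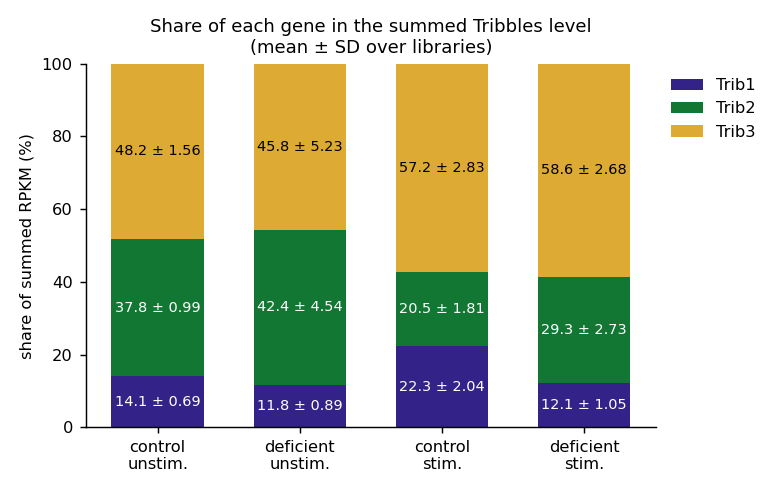
Share of Trib1 (blue), Trib2 (green) and Trib3 (yellow) in the summed RPKM of the family, as the mean over the libraries of a group with its SD. The Trib1 part is 14.1% in unstimulated and 22.3% in stimulated control cells, and 11.8% and 12.1% in deficient cells.

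The genes most like each member were taken as those with the smallest root mean square difference (RMS) in centred log2 CPM over the 13 libraries, among 9083 candidates. Closest to Trib1 was Icam1, an adhesion molecule gene, at an RMS of 0.14, followed by Amigo2 (0.21), the ephrin receptor gene Epha2 (0.21) and the integrin gene Itgav (0.23). Icam1 had log2 responses of 1.66 in control and 1.06 in deficient cells, beside 1.54 and 0.87 for Trib1. With each state centred on its own, Icam1 was again closest to Trib1 (0.12), followed by Samsn1, Grasp, the ERK phosphatase gene Dusp5 and the Notch glycosyltransferase gene Lfng at 0.14 to 0.17. Closest to Trib2 was Foxp1, a forkhead factor gene of B cell development, at 0.09, and Gorasp1, Fam122a, Chd1l and Mdh1 followed at 0.10 to 0.12. Closest to Trib3 was Mthfd2, a mitochondrial folate enzyme gene, at 0.07, followed by Sesn2 (0.08), Eif4ebp1 (0.09), the asparaginyl-tRNA synthetase gene Nars (0.10) and Shmt2 (0.10). The members lay farther from one another, at 0.35 for Trib1 and Trib3, 0.56 for Trib2 and Trib3 and 0.72 for Trib1 and Trib2.

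The integrated stress response, in which ATF4 raises genes of amino acid supply together with Trib3, was described by a list of 23 genes, all of them tested. In control cells 18 rose, 2 fell and 3 were not called after stimulation, where 28.5% of all genes were called higher and 31.8% lower, with a median log2 change of 0.99 against -0.13 over all genes tested. Psat1 and Shmt2 of serine and glycine metabolism rose by 2.04 and 1.11 on the log2 scale, and Slc7a5 and Slc3a2, which form an amino acid transporter, by 1.39 and 1.42 (edgeR, adjusted p = 1.5e-10 or less for each of the 4). The 2 that fell were Eif2ak3 (-1.94) and Ddit4 (-0.78), and Atf4 itself rose by 0.56. In deficient cells 17 rose, 2 fell and 4 were not called, where 28.3% of all genes were called higher and 29.6% lower, with a median of 0.91 against -0.11 over all genes. Trib3 at 1.12 and 1.18 lay near these medians. Between genotypes edgeR called 0 of 23 in either state, with 7 at rest and 6 after stimulation at an unadjusted p under 0.05, and DESeq2 called 0 at rest and 2 after stimulation (Ddit4 and Slc3a2). TGATGNAA occurred in the promoter windows of 6 of the 22 list genes that had one, against 3.97% of all windows. TGACGTCA, TGANTCA and CACGTG occurred in those of 1, 2 and 1 of the 22, against 1.79%, 7.81% and 7.15%. A list gene counted when any of its windows matched, while the shares of all windows are per window, so the units differ. The list was written around ATF4, so its share of TGATGNAA is a description only.

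Tribbles proteins act through the COP1 ligase, whose genes formed the next list. It held COP1 itself (Rfwd2 in these files), its partners Det1, Dda1, Ddb1, Cul4a, Cul4b and Rbx1, and Stk40, the pseudokinase closest to Tribbles. In both genotypes 4 of 8 rose after stimulation and the other 4 were not called, with medians of 0.15 in control and 0.11 in deficient cells against -0.13 and -0.11 over all genes. Of all genes, 60.3% and 57.9% were called in either direction, and 28.5% and 28.3% were called higher. Det1 rose by 0.63 in control cells, Ddb1 by 0.47, Cul4a by 0.27 and Rbx1 by 0.19. Rfwd2 was at 83.8 ± 2.07 CPM in control unstimulated and 80.6 ± 4.46 CPM in control stimulated cells, a log2 difference of -0.06 that was not called. Between genotypes edgeR called 0 of 8 in either state, with 1 in each at an unadjusted p under 0.05, and DESeq2 called 0 at rest and 1 after stimulation, Stk40.

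Of 13 genes for substrates and bound factors 12 were tested. After stimulation of control cells 2 rose, 3 fell and 7 were not called, with a median of -0.43 against -0.13 over all genes, of which a larger share, 60.3%, was called. Ets1, a COP1 substrate, fell by 2.04 on the log2 scale and the cell cycle phosphatase gene Cdc25b fell by 2.24, while the acetyl-CoA carboxylase gene Acaca rose by 1.08 and Cdc25a by 0.42. In deficient cells 4 rose, 3 fell and 5 were not called, near the 57.9% of all genes called, with a median of -0.16 against -0.11. Between genotypes edgeR called 0 of 12 in either state, with 2 in each at an unadjusted p under 0.05, and DESeq2 called 0 at rest and 1 after stimulation, Ets2. Cebpa, the best known substrate, was low, at a mean of 5.72 CPM in control unstimulated cells, and also belongs to myeloid cells. Its log2 response was -1.77 in control cells (edgeR, adjusted p = 0.0179) and -1.50 in deficient cells (adjusted p = 0.0499).

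Of the 12 genes for MEK, JNK kinase and AKT partners 2 rose, 6 fell and 4 were not called after stimulation in each genotype, with medians of -0.14 and -0.12. Both are near all genes, which had medians of -0.13 and -0.11 and 60.3% and 57.9% called. At rest edgeR called 0 of 12 between genotypes, with 3 at an unadjusted p under 0.05, and DESeq2 called 0. Foxo1 fell by 1.46 and Foxo4 by 1.13 on the log2 scale in control cells. Mapk3, which encodes ERK1, the kinase downstream of the Tribbles-bound MEK1, fell by 1.43 in control and by 0.65 in deficient cells. Its genotype difference after stimulation was 0.91 ± 0.07 (SE; edgeR, adjusted p = 3.6e-06). Mapk3 was also the 1 gene called in the difference of the responses, at 0.78 (adjusted p = 0.00443).

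**Figure D5:**
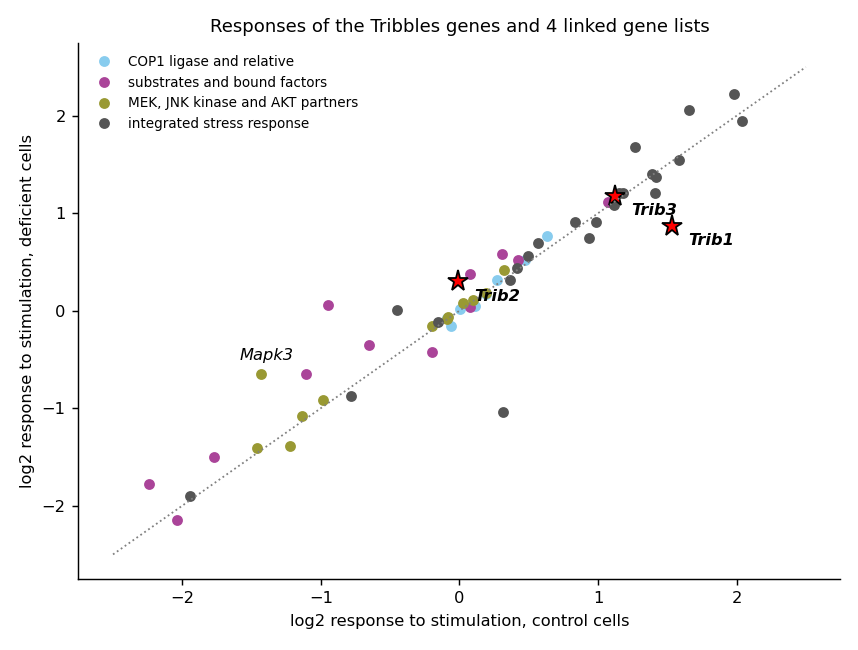
Log2 response to stimulation in control cells (horizontal axis) and in deficient cells (vertical axis) for Trib1, Trib2 and Trib3 (red stars) and the tested genes of the 4 lists (circles), with a dotted line of equal response. Trib3 lies on the line among the stress response genes, Trib1 lies below it at 1.54 and 0.87, and Trib2 and Mapk3 lie above it.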

How the data were processed

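Mouse splenic B cells were obtained by depleting CD43-bearing cells, and their RNA was sequenced on a HiSeq2500, per the labels' protocols. Each of the 13 libraries has a table of whole-number counts by gene symbol, deposited by the authors. TopHat, HTSeq and mm10 are named for these in the submitters' processing notes, without versions. A second table per library holds the authors' log2 values, for which the notes name DESeq2. Annotation, strand setting and multi-mapping rule are not given in the sources used here. Of 23337 symbols, 1 with a missing cell was left out.

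Counts were fitted with edgeR 4.0.16 in R 4.3.3: filterByExpr with minimum count 10, TMM, a robust quasi-likelihood fit over every library, 1 mean for each group and 9 residual degrees of freedom. A gene was called when its adjusted p (Benjamini-Hochberg over 13574 genes) was under 0.05. Standard errors are the log2 change over the root of F. The script was tested on simulated data for the control response only. The simulated spread was smaller than the common biological coefficient of variation of 0.175 in these libraries. The genotype comparisons were not simulated. At these depths 3 counts stood for 0.0902 to 0.140 CPM, for counting error only. Chi-square per gene between replicate libraries was 7.78 to 33.5, so none agreed within sampling noise. Same-numbered libraries of a genotype deviated together across the states (r of 0.49 to 0.83 over 9658 genes, 6 pairs), so the numbers pair the states within a genotype.

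Members, lists and naming rule were chosen with earlier results of these data known. The rule named the 3 members, Zc3h12a, up to 4 called genes of each list with the smallest p in the control response, and the 5 genes closest to each member among those with mean log2 CPM of at least 2 (prior count 2). Rfwd2, Cebpa, Stk40, Ets2, Ddit4, Eif2ak3 and Atf4 were named after their values were seen. A few others meeting the rule are not reported here. Alternatives were DESeq2's size factors, DESeq2 1.42.0, other filters, only the groups compared, the replicate block, limma 3.58.1 on the log2 tables, and omission of libraries.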

Additional observations from a re-analysis of the deposited data

Results flagged for a closer look

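Among the control unstimulated libraries, which are the only group of 4, library 3 stood apart in its Trib2 level. Its 65.9 CPM lay above 58.8 to 59.3 CPM in the other 3, a gap of 0.933 of the whole range. Chance flags about 1 in 20 such groups, and 4 genes were looked at in this way. The same library had the highest Trib1 level of its group, at 36.7 CPM, and the highest myeloid marker sum, at 417 CPM. Control unstimulated library 4 had a myeloid sum of 395 CPM and a Trib2 level of 58.9 CPM. The part of the Trib1 level or of the myeloid sum in the Trib2 level was not tested.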

How the results depend on the processing

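Of 312 values of the 3 members under the alternatives, 302 kept their direction and side of the threshold or, where untested, moved by less than a spread. That spread was the largest SD in log2 CPM within a group of the comparison. The untested Trib3 difference of responses was counted as kept though its sign changed, from 0.060 to -0.021 without deficient unstimulated library 3. Trib1 at rest was called lower in deficient cells by DESeq2 (-0.33, adjusted p = 0.0323). The Trib2 response of control cells, -0.011 and not called in any fit, changed sign in 9 fits, and the cause of neither was tested. It was 0.060 with DESeq2 and with its size factors in edgeR, 0.056 with limma on the deposited log2 values, 0.036 without both number 1 libraries of the deficient genotype, 0.030 with only the groups compared, and -0.094 to 0.036 without single libraries (adjusted p of 0.391 to 0.934). The replicate block changed no call of a member, and with it the Trib1 responses were 1.52 in control and 0.87 in deficient cells. Across genotypes, same-numbered libraries correlated negatively in all 6 pairs (r of -0.59 to -0.06). Differently numbered libraries were not compared, so what a number shares across genotypes is not known. Counts of called genes moved more. Between unstimulated genotypes the count was 44, against 163 in DESeq2, 74 without both number 1 libraries of the deficient genotype, and 17 to 74 without single libraries. Between stimulated genotypes it was 273, against 532 in DESeq2 and 129 to 369 without single libraries. For the difference of the responses it was 1, against 48 in DESeq2, 13 without both number 1 libraries, 10 with no filter, 68 with the replicate block and 1 to 10 without single libraries. That last comparison needs all 4 groups, so a fit of only the groups compared is the same fit. The number of libraries, 3 or 4 a group, limits the precision of each difference.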
